A study of Mus musculus with 6 samples.

Results

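The CXCR3 and CXCR6 chemokine axes were followed through 5 genes, the ligand genes Cxcl9, Cxcl10 and Cxcl16 and the receptor genes Cxcr3 and Cxcr6. The genes were chosen by name and matched to the symbols of the count tables, and all 5 were found among 32285 genes. CXCL9 and CXCL10 are secreted chemokines whose genes are switched on by interferon gamma, and both bind CXCR3, a receptor of activated T cells, NK cells and plasmacytoid dendritic cells. CXCL16 is made as a membrane-anchored chemokine of macrophages and dendritic cells that can be shed, and it binds CXCR6, a receptor of effector and tissue-resident T cells. In tumors, both pairs are known for the recruitment of T cells and for their positioning beside myeloid cells.

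Transcripts were measured by droplet-based 5′ scRNA-Seq in CD45+ cells from B16-F10 tumors, which form from a transplanted mouse melanoma line, in female C57BL/6 mice of 6 to 10 weeks. All mice carried such tumors and were given 150 μg of antibody to PD-1 on 3 occasions each week, beginning on day 7, and those of the αPD-1 + corin group were also given 200 μg of corin each day, beginning on day 6. Corin is an inhibitor of the CoREST complex, which carries the histone deacetylase HDAC1 and the demethylase LSD1. Each group had 3 samples and each treatment arm 10 mice, and no label ties a sample to its mice, so that p values measure the spread between these samples.

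The libraries held 52281422 to 84276739 UMIs (unique molecules counted) with a median of 2400 to 3114 UMIs per barcode, and 28865 of 52899 barcodes were kept as cells. Any pair of libraries shared 10 to 32 barcodes, at most 0.457% of the smaller library. Clusters were named from marker lists, and each name means a resemblance to that type. There were 10468 macrophages, 1544 monocytes, 1045 dendritic cells, 1051 fibroblasts, 1883 melanoma cells, 3894 T cells and 446 NK cells. Every marker of these lists, 8 of 8 for macrophages and 8 of 8 for T cells, was higher in its own class than in the other cells. The same lists had named the classes, so this is no separate check of the names. A further 2629 cells carried markers of several lineages. They made up 14.1% to 18.5% of the cells under αPD-1 and 1.145% to 8.40% under αPD-1 + corin. Fibroblasts, endothelial cells and melanoma cells lack CD45 and had passed the selection. Among the samples, αPD-1 + corin replicate 1 stands apart with 168 T cells and 4767 macrophages, so that the log2 fold changes of the members in whole lineages are also given without it.

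The 3 ligand genes lie on the minus strand of the mouse genome build GRCm39. Cxcl9 (ENSMUSG00000029417, 4 exons) spans chr5:92469206-92475945 and Cxcl10 (ENSMUSG00000034855, 4 exons) chr5:92494497-92496748 on the same chromosome, and Cxcl16 (ENSMUSG00000018920, 5 exons) spans chr11:70344517-70352620. Cxcr3 (ENSMUSG00000050232, 2 exons) lies on the minus strand at chrX:100775141-100777875 and Cxcr6 (ENSMUSG00000048521, 2 exons) on the plus strand at chr9:123635534-123640825. Cxcl10 overlaps Art3, Cxcl16 overlaps Med11 and Zmynd15, and Cxcr6 overlaps Fyco1, in each case on the opposite strand. The 250 bases before the starts of Cxcl9 (chr5:92475946-92476195) and Cxcl10 (chr5:92496749-92496998) are shown because these genes varied between samples in each ligand lineage described next, while Cxcl16 varied less. Capitals mark matches to GAAANNGAA, a motif that interferon regulatory factors and STAT complexes can bind, and to the NF-κB consensus.

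Cxcl9: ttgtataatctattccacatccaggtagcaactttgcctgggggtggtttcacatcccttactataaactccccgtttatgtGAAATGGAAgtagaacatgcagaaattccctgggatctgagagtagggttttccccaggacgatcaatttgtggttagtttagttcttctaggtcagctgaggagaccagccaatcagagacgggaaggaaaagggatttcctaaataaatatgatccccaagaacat

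Cxcl10: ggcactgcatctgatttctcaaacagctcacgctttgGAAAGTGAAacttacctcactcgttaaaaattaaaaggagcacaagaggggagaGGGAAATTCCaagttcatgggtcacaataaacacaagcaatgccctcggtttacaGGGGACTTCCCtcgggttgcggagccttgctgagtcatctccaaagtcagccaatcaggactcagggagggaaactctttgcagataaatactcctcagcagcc

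The Cxcl9 window held 1 match to GAAANNGAA, at -168 to -160 from the start of the gene. The Cxcl10 window held 1 match, at -213 to -205, and the NF-κB consensus at -159 to -150, -104 to -95 and -103 to -94, the last of these on both strands and sharing 9 bases with the one before it. No window from 250 bases before to 50 after the starts of Cxcl16, Cxcr3 or Cxcr6 held GAAANNGAA or the NF-κB consensus on either strand, and TTCNNNGAA, the motif of STAT dimers, was found in none of the 5. Of 21770 promoters of protein-coding genes of the same length, 8.78% held GAAANNGAA, 8.81% held TTCNNNGAA, 8.97% held the NF-κB consensus and 0.625% held both the first and the last of these. The positions and sequences are those of the GENCODE vM39 annotation and the GRCm39 genome, and a match is a description of letters only.

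Cxcl9 was carried by several lineages of the tumor. For each sample the UMIs of a lineage were added up, and levels are given as CPM, the UMIs of the gene per 1000000 UMIs of the lineage. Over all 6 samples the level of Cxcl9 was 382 ± 228 CPM (SD, n = 6) in fibroblasts, 230.1 ± 175 in macrophages, 196 ± 91.0 in dendritic cells and 159 ± 88.8 in monocytes. Neighbors in this order differed by less than the spread between the samples. Endothelial cells, with 9 to 34 cells per sample, are left out of it. Melanoma cells were at or below 19.4 CPM and T cells at or below 15.5 CPM in every sample. T cells are not a known source of Cxcl9, and their level is read as background. Whether it came from free RNA or from macrophages caught with T cells was not tested. In αPD-1 + corin replicate 1 no UMI of Cxcl9 was found in T cells, which allows up to 7.44 CPM.

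In macrophages, Cxcl9 was at 203, 359 and 139.7 CPM under αPD-1 and at 12.1, 162 and 505 CPM under αPD-1 + corin (replicates 1 to 3). The lowest and the highest sample of all were thus both αPD-1 + corin samples, replicate 1 and replicate 3, and the groups overlapped. Counting error alone, as a 95% exact Poisson interval, spanned 10.6 to 13.8 CPM in replicate 1 and 488 to 522 CPM in replicate 3. The means were 234 ± 113 (SD, n = 3) and 226 ± 252, a log2 fold change of 0.06 (SE 0.94, adjusted p = 0.979, edgeR). Without αPD-1 + corin replicate 1 it was 0.63 (SE 0.47, adjusted p = 0.646, edgeR), and without replicate 3 it was -1.33 (SE 0.76, adjusted p = 0.235, edgeR). None of the 3 ligand genes passed the threshold of 0.05 in macrophages, where 0.0507% of 11830 genes did.

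The same sample stood apart in the other cells that made Cxcl9. In monocytes Cxcl9 was at 199, 231 and 109.9 CPM under αPD-1 and 6.96, 161 and 243 CPM under αPD-1 + corin. In dendritic cells it was at 158, 250.4 and 206 CPM and at 35.2, 229 and 296 CPM. In fibroblasts it was at 186, 515 and 317 CPM and at 69.1, 568 and 639 CPM. In each of these lineages αPD-1 + corin replicate 1 was the lowest of the 6 samples and replicate 3 the highest. The log2 fold changes were -0.36 (SE 0.62) in monocytes, -0.10 (SE 0.51) in dendritic cells and 0.35 (SE 0.63) in fibroblasts, with edgeR adjusted p of 0.832, 0.968 and 0.784. Without αPD-1 + corin replicate 1 they were 0.27, 0.42 and 0.88, with edgeR adjusted p of 0.750, 0.697 and 0.406. None of the 3 ligand genes passed in these lineages, where 0.788%, 0.107% and 0.842% of the genes tested did. In melanoma cells 0% of 9467 genes passed in edgeR, with 680 at an unadjusted p under 0.05 and 7 past the adjusted threshold in DESeq2, and Cxcl9 was too low to test.

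**Figure D1:**
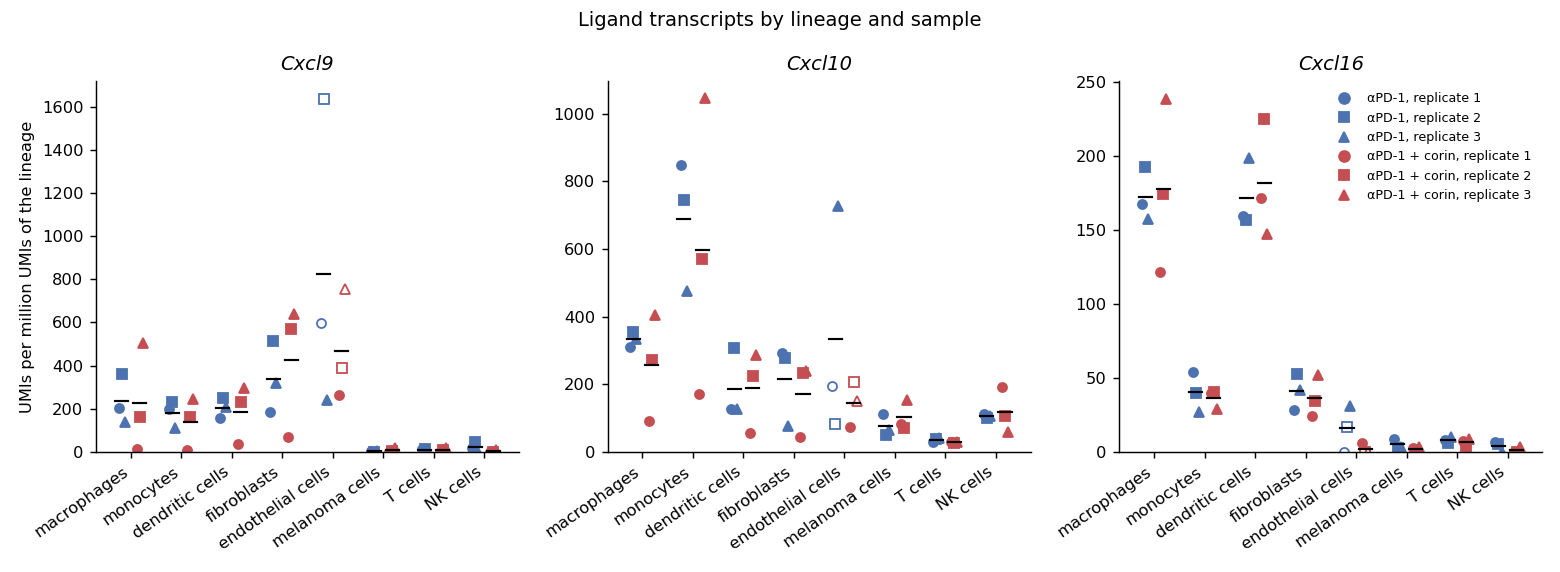
UMIs of Cxcl9, Cxcl10 and Cxcl16 per 1000000 UMIs of the lineage (vertical axes, linear and different for each gene) in each of 8 lineages, with 1 symbol per sample, black bars for the mean of 3 samples and open symbols for a sample with fewer than 20 cells of the lineage. The red circle, αPD-1 + corin replicate 1, is the lowest sample for Cxcl9 in macrophages (12.1), monocytes (6.96), dendritic cells (35.2) and fibroblasts (69.1), while Cxcl16 stays between 121 and 238 in macrophages of all samples.

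Low Cxcl9 in αPD-1 + corin replicate 1 was also seen within the largest macrophage cluster and within the one led by MHC class II genes. The level over all macrophages sums clusters whose shares differed. The largest made up 41.5%, 42.1% and 45.3% of macrophages under αPD-1 and 16.5%, 19.7% and 42.1% under αPD-1 + corin. A Ppbp cluster made up 0.832%, 0.617% and 2.56% and 26.2%, 23.9% and 0.860%. In the largest cluster, Cxcl9 was at 345, 453 and 212 CPM under αPD-1 and at 18.4, 292 and 660.3 CPM under αPD-1 + corin. In the cluster led by MHC class II genes such as H2-Ab1, which present antigen to CD4 T cells, it was at 536, 960.2 and 193 CPM and at 43.6, 552 and 885 CPM. The value of replicate 1 was below that of every other sample in both clusters. A Cxcl9 UMI was found in 10.7%, 15.3% and 7.85% of αPD-1 macrophages and in 0.781%, 7.39% and 23.9% of αPD-1 + corin macrophages after each cell was thinned to 1000 UMIs (two-sided exact permutation test, p = 0.9). The mean was then higher by 4.35 points under αPD-1 + corin when replicate 1 was left out (exact permutation test, p = 0.8). Without thinning the shares were 19.75%, 30.6% and 15.9%, and 1.64%, 13.5% and 40.7%. T cells, with a median of 2155 and 2818 UMIs per cell against 3707 and 3487 in macrophages, gave 0.519% to 0.994% under αPD-1 and at most 1.44% under αPD-1 + corin when thinned (at most 2.19% and 4.16% without thinning). The share in macrophages of αPD-1 + corin replicate 1 lay within that background range, although their 12.1 CPM lay above the limit of 7.44 CPM in the T cells of the same sample.

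Cxcl10, the other CXCR3 ligand of these cells, had its highest level per UMI in monocytes. Over all 6 samples its level was 642 ± 307 CPM (SD, n = 6) in monocytes, 294 ± 108 in macrophages, 193 ± 106 in fibroblasts and 187 ± 100.0 in dendritic cells, and neighbors below monocytes differed by less than their spread. In monocytes Cxcl10 was at 848, 744 and 475 CPM under αPD-1 and at 171, 570.4 and 1046 CPM under αPD-1 + corin. In macrophages it was at 311, 353 and 332 CPM and at 92.0, 272 and 405 CPM. The αPD-1 + corin samples again held the lowest and the highest value in both lineages, in replicates 1 and 3. The log2 fold change was -0.17 (SE 0.44, adjusted p = 0.890, edgeR) in monocytes and -0.25 (SE 0.42, adjusted p = 0.766, edgeR) in macrophages, and without replicate 1 it was 0.29 (adjusted p = 0.700, edgeR) and 0.15 (adjusted p = 0.789, edgeR).

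Dendritic cells had Cxcl10 at 126, 308 and 126 CPM under αPD-1 and at 56.7, 223 and 285 CPM under αPD-1 + corin, a log2 fold change of 0.06 (SE 0.48, adjusted p = 0.981, edgeR). Its sign changed with the clustering, and without αPD-1 + corin replicate 1 it was 0.52 (adjusted p = 0.777, edgeR). Melanoma cells, in which Cxcl9 was near 0, had Cxcl10 at 111, 50.5 and 65.5 CPM and at 81.1, 68.7 and 154 CPM, with a log2 fold change of 0.41 (SE 0.33, adjusted p = 0.766, edgeR). It was 0.55 with αPD-1 + corin replicate 1 left out (edgeR adjusted p of 0.990). Here αPD-1 + corin replicate 1 was not the lowest sample. In Treg-like cells Cxcl10 was at 98.3, 108 and 89.7 CPM and at 16.3, 40.1 and 61.9 CPM. The groups did not overlap there, and the log2 fold change of -1.12 (SE 0.37, adjusted p = 0.217, edgeR) did not pass, in a class where 0.442% of genes did. The 16.3 CPM of αPD-1 + corin replicate 1 rests on 34 cells, which held 61387 UMIs of all genes. The part of free RNA in these values was not tested. Over all T cells Cxcl10 was between 26.3 and 41.4 CPM.

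Cxcl16, the ligand of CXCR6, varied less between samples. In macrophages it was at 167, 192 and 157 CPM under αPD-1 and at 121, 174 and 238 CPM under αPD-1 + corin. Replicates 1 and 3 of the αPD-1 + corin group were again the lowest and the highest, and the highest was 1.97 times the lowest, against 41.7 times for Cxcl9 and 4.4 times for Cxcl10. The means were 172 ± 18.3 (SD, n = 3) and 178 ± 58.8, a log2 fold change of 0.17 (SE 0.22, adjusted p = 0.698, edgeR), and without αPD-1 + corin replicate 1 it was 0.38 (adjusted p = 0.434, edgeR). In the largest macrophage cluster Cxcl16 was at 185.5, 186 and 165 CPM and at 189.8, 211 and 202 CPM, without overlap, and its log2 fold change of 0.26 did not pass (adjusted p = 0.752, edgeR). A Cxcl16 UMI was found in 12.15%, 14.4% and 12.7% and in 11.1%, 12.7% and 18.15% of thinned macrophages (33.1%, 42.7% and 32.4%, and 29.2%, 39.5% and 48.1% without thinning; two-sided exact permutation test, p = 0.8), against 0.32% to 1.24% of thinned T cells.

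Among dendritic cells the level of Cxcl16 differed by subset. In cells resembling mature dendritic cells, the CCR7-bearing cells that have taken up antigen and can migrate to lymph nodes, Cxcl16 was at 758, 672 and 444 CPM under αPD-1 and at 455, 594 and 346 CPM under αPD-1 + corin. These values rest on 12, 12 and 26 and on 57, 37 and 4 cells. In cDC1-like cells, which cross-present antigen to CD8 T cells, Cxcl16 was at 61.3, 24.1 and 96.6 CPM and at 147, 135 and 77.9 CPM. The αPD-1 values rest on 10, 3 and 11 UMIs in 20, 14 and 13 cells. In cDC2-like cells, which present to CD4 T cells, it was at 60.7, 139.7 and 163 CPM and at 153, 189 and 113 CPM. Every sample had more in the mature cells than in either other subset. In cDC1-like cells the log2 fold change of Cxcl16 was 1.05 (SE 0.40, adjusted p = 0.265, edgeR) and that of Cxcl9 was -1.18 (SE 0.54, adjusted p = 0.366, edgeR), in a class where 0.16% of genes passed. Over all dendritic cells Cxcl16 was at 159, 157 and 198 CPM and at 172, 225 and 147 CPM, with overlapping groups and a log2 fold change of 0.15 (SE 0.19, adjusted p = 0.827, edgeR). It was 0.19 with αPD-1 + corin replicate 1 left out (edgeR adjusted p of 0.900). Monocytes, at 26.7 to 53.9 CPM, and fibroblasts, at 23.8 to 52.8 CPM, carried less Cxcl16 than macrophages in each sample, and melanoma cells were at or below 8.85 CPM, the range of the T cell background (3.65 to 10.0 CPM).

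The treatment difference of the ligands was compared between dendritic cells and macrophages in a fit with the sample as a block. The difference of the log2 fold changes, dendritic cells minus macrophages, was 0.33 (SE 0.43) for Cxcl9, 0.39 (SE 0.28) for Cxcl10 and 0.03 (SE 0.29) for Cxcl16. The edgeR adjusted p values were 0.903, 0.788 and 0.986, and 0.0182% of the genes tested passed. Without αPD-1 + corin replicate 1 the differences were -0.051, 0.51 and -0.16.

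Interferon gamma, the cytokine that induces Cxcl9 and Cxcl10, was measured in the same samples, with its level read from the UMIs of Ifng in T and NK cells per 1000000 UMIs of all kept cells. Ifng was at 27.5, 53.6 and 20.75 under αPD-1 and at 2.735, 33.05 and 131 under αPD-1 + corin. In macrophages the summed level of 16 genes known to respond to interferon gamma was 1519, 1675 and 1389 CPM and 939.7, 1560.3 and 2458 CPM. The lowest and the highest sample for both measures were αPD-1 + corin replicates 1 and 3, as for Cxcl9. Of these 16, Gbp2, an interferon-induced GTPase, was at 121, 171 and 132 CPM and 48.4, 148 and 245 CPM. Ciita, another of them, was at 59.6, 54.8 and 79.6 CPM and 25.5, 39.8 and 76.7 CPM, with αPD-1 replicate 3 the highest. Irf1, a transcription factor not among the 16, was at 272, 236 and 236 CPM and 107, 213 and 379 CPM. The part of Ifng in the level of Cxcl9 was not tested. In melanoma cells the responder sum was 608, 548 and 425 CPM and 83.8, 556 and 1577 CPM, with the same lowest and highest sample. Monocytes and fibroblasts also had this lowest and highest sample. Dendritic cells were at 2717, 3028 and 2656 CPM and at 2409, 3194 and 3141 CPM, with αPD-1 + corin replicate 2 the highest. In endothelial cells, with 9 to 34 cells per sample, αPD-1 replicate 2 was the highest, at 2770 CPM. In both, αPD-1 + corin replicate 1 was the lowest.

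**Figure D2:**
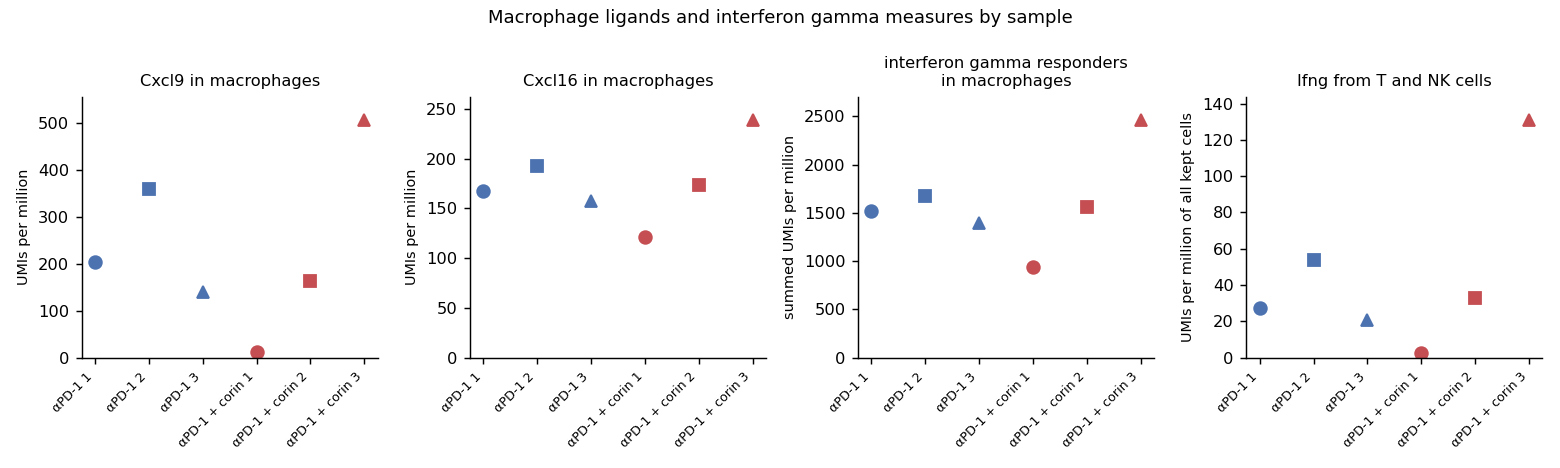
Level of Cxcl9, of Cxcl16 and of the summed interferon gamma responder genes in macrophages, in UMIs per 1000000 UMIs of macrophages, and of Ifng from T and NK cells per 1000000 UMIs of all kept cells (vertical axes, linear from 0), with 1 symbol per sample. In all 4 panels αPD-1 + corin replicate 1 is the lowest and replicate 3 the highest sample, with Cxcl9 between 12.1 and 505 and Cxcl16 between 121 and 238.

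The share of T cells moved with these values, and the Ifng measure over all kept cells contains this share by construction. T cells made up 18.0%, 22.4% and 13.9% of the kept cells under αPD-1 and 2.14%, 8.02% and 25.4% of those under αPD-1 + corin, so that replicate 1 had the lowest share and replicate 3 the highest. Within T cells, Ifng was at 198, 284 and 177 CPM and at 166, 448 and 565 CPM. Its log2 fold change of 0.97 (SE 0.29, adjusted p = 0.0302, edgeR) passed, although replicate 1 was below every αPD-1 sample. The call was lost without naive T-like cells (0.65, adjusted p = 0.194, edgeR) and without the Rapgef4 and Bach2 T cells as well (0.46, adjusted p = 0.663, edgeR). It was also lost without αPD-1 replicate 1 (0.89) or 3 (0.83) and without αPD-1 + corin replicate 2 (0.95) or 3 (0.63), with adjusted p between 0.0642 and 0.160 in edgeR, and without αPD-1 + corin replicate 1 it was 1.28 (adjusted p = 0.000928, edgeR). Of the 16 responder genes 15 were tested in macrophages, and none passed, with a median log2 fold change of 0.17 against 0.0055 over all genes. None of the 18 genes of the interferon input (receptors, JAK kinases, STAT and IRF factors) passed in macrophages either, and their median was 0.12.

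Where the ligand transcripts came from was read as the share of all UMIs of the gene in a sample that fell in a lineage. This share combines how many cells of a lineage were captured with the RNA of each cell, which cannot be told apart in a sum. The total also holds the cells with markers of several lineages. These made up 14.1% to 18.5% of kept cells under αPD-1 and 1.145% to 8.40% under αPD-1 + corin, so that the shares of the other lineages depend on them too. Macrophages carried 46.7%, 60.8% and 36.9% of the Cxcl9 UMIs under αPD-1 and 31.1%, 47.7% and 56.9% of those under αPD-1 + corin (two-sided exact permutation test, p = 0.8). Fibroblasts carried 5.965%, 6.54% and 10.3% and 45.5%, 16.0% and 13.2% of them, without overlap (p = 0.1 in the exact permutation test, the smallest that 3 samples against 3 allow). Fibroblasts also made up more of the kept cells, at 1.12% to 1.67% and 2.26% to 8.0%. Monocytes carried 10.3%, 8.23% and 11.04% and 0.971%, 2.29% and 5.41% of the Cxcl9 UMIs, again without overlap (exact permutation test, p = 0.1). Without αPD-1 + corin replicate 1 the mean share under αPD-1 + corin was 4.13 points above that under αPD-1 for macrophages and 6.99 points above it for fibroblasts.

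For Cxcl10, macrophages carried 38.7%, 52.6% and 39.4% of the UMIs under αPD-1 and 59.5%, 56.1% and 45.65% under αPD-1 + corin (exact permutation test, p = 0.2). Melanoma cells carried 2.56%, 0.533% and 2.04% and 10.85%, 3.24% and 8.41%, without overlap (exact permutation test, p = 0.1), and they made up 2.29% to 3.825% and 7.91% to 12.1% of the kept cells. In αPD-1 + corin replicate 2, which held 1214 neutrophils, neutrophils carried 20.0% of the Cxcl10 UMIs and 19.5% of the Cxcl9 UMIs. For Cxcl16, macrophages carried 60.6%, 72.3% and 55.1% and 76.5%, 61.5% and 72.4% of the UMIs (exact permutation test, p = 0.2). Dendritic cells carried 5.775% to 13.1% of the Cxcl16 UMIs in any sample, although their CPM was close to that of macrophages. Over all kept cells Cxcl16 was at 64.1, 84.9 and 60.5 CPM under αPD-1 and at 87.9, 108 and 97.85 CPM under αPD-1 + corin, without overlap, with macrophages at 20.0% to 26.5% and 32.0% to 60.65% of the cells.

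**Figure D3:**
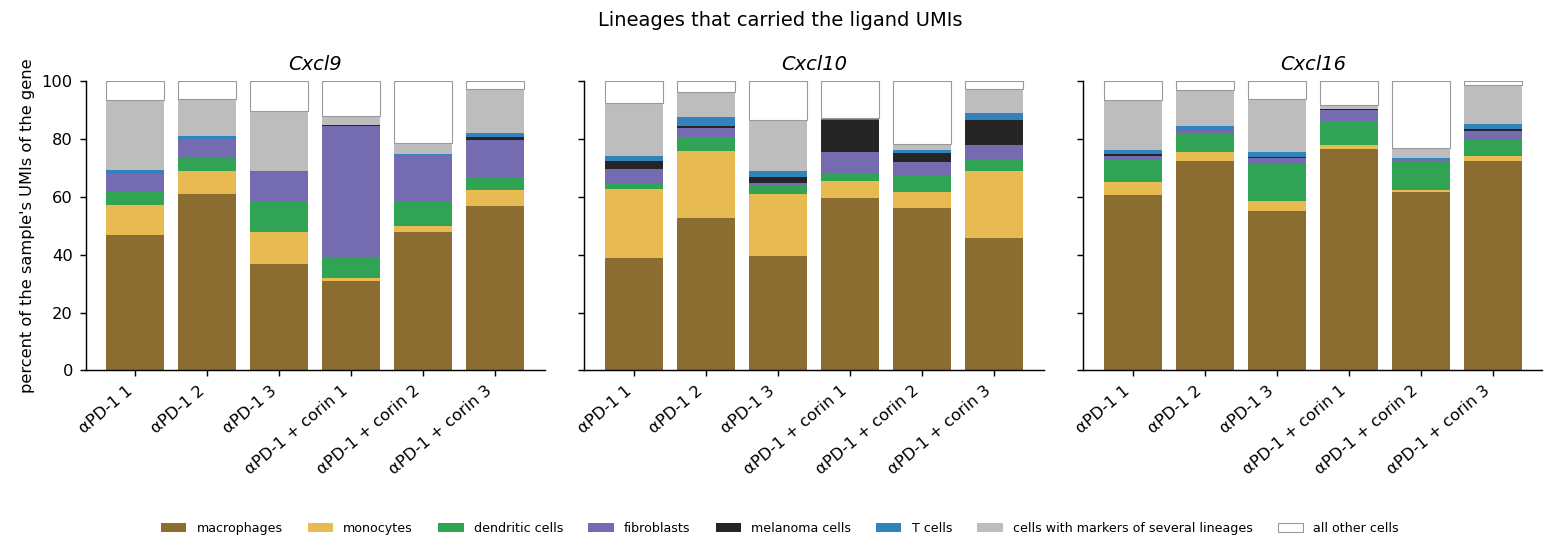
Share of a sample's UMIs of Cxcl9, Cxcl10 and Cxcl16 that fell in each lineage (vertical axis, percent, stacked to 100), with 1 bar per sample. The fibroblast part of Cxcl9 reaches 45.5% in αPD-1 + corin replicate 1, and macrophages carry between 55.1% and 76.5% of Cxcl16 in each sample.

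The receptors were carried by T and NK cells. Over all 6 samples Cxcr3 was at 100.2 ± 21.9 CPM (SD, n = 6) in NK cells, 73.7 ± 17.9 in T cells and 64.1 ± 27.8 in plasmacytoid dendritic cells. T cells and plasmacytoid dendritic cells differed by less than their spread. In macrophages Cxcr3 was at or below 7.85 CPM in any sample. Cxcr6 was at 202 ± 55.1 CPM in T cells and 40.8 ± 37.3 in NK cells, and at or below 9.51 CPM in macrophages. Macrophages are not known for either receptor, and their level is read as background. For Cxcr3 that background was at 3.04, 2.26 and 4.23 CPM under αPD-1 and at 6.22, 6.10 and 7.85 CPM under αPD-1 + corin, without overlap (log2 fold change 1.23, SE 0.28, adjusted p = 0.126, edgeR).

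In T cells Cxcr6 was at 136, 193 and 179 CPM under αPD-1 and at 196, 204 and 303 CPM under αPD-1 + corin. The groups did not overlap, although αPD-1 replicate 2 and αPD-1 + corin replicate 1 lay close together. How many of all genes did not overlap in T cells was not counted, and 3197 of 9741 had an unadjusted p under 0.05 (edgeR). The means were 169.7 ± 29.9 (SD, n = 3) and 234 ± 59.6, and Cxcr6 rose by 0.58 in log2 units (SE 0.18, adjusted p = 0.0368, edgeR). It was the only 1 of 5 members to pass in T cells, where 18.9% of 9741 genes passed, so that 1 of 5 is close to the background. The call was lost without αPD-1 replicate 1 (log2 fold change 0.44, adjusted p = 0.182, edgeR), without αPD-1 replicate 3 (0.61, adjusted p = 0.104, edgeR) and without αPD-1 + corin replicate 3 (0.32, adjusted p = 0.252, edgeR), and it held without αPD-1 + corin replicate 1 (0.69, adjusted p = 0.0258, edgeR). The summed markers C1qa, C1qb and C1qc of macrophages were at 55.2 to 97.1 CPM in the T cells under αPD-1 and 60.6 to 107 CPM in those under αPD-1 + corin.

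Cxcr3 in T cells was at 64.6, 57.2 and 65.85 CPM under αPD-1 and at 107, 81.0 and 66.9 CPM under αPD-1 + corin. The groups did not overlap, with αPD-1 + corin replicate 1 the highest and replicate 3 just above the αPD-1 samples, the reverse of the order in which Cxcr6 placed these samples. The means were 62.55 ± 4.64 (SD, n = 3) and 84.8 ± 20.1, and the log2 fold change of 0.41 (SE 0.16, adjusted p = 0.0911, edgeR) did not pass. Without αPD-1 + corin replicate 3 it was 0.60 and passed (adjusted p = 0.0405, edgeR), and without replicate 1 it was 0.31 (adjusted p = 0.156, edgeR).

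The T cells of the 2 groups were made up of different classes, given here as a description. Naive T-like cells, with the markers Tcf7, Lef1 and Ccr7, made up 38.1%, 36.7% and 29.8% of T cells under αPD-1 and 3.57%, 2.85% and 1.33% under αPD-1 + corin. A subcluster led by Rapgef4 and Bach2, without a name from the markers, made up 19.6%, 10.7% and 16.8% and 0.595%, 1.27% and 0.416%. CD8 T-like cells made up 6.23%, 11.3% and 10.15% and 10.1%, 17.7% and 39.9%. The receptor levels of these classes were far apart. Cxcr6 was at 25.2 to 38.1 CPM in the naive T-like cells and 26.3 to 49.5 CPM in the Rapgef4 and Bach2 subcluster under αPD-1, and at 462 to 493 CPM in their CD8 T-like cells. The αPD-1 + corin samples held 6, 9 and 16 naive T-like cells. These held 0, 1 and 1 UMI of Cxcr6 and none of Cxcr3, and a count of 0 allows up to 352, 145 and 98.4 CPM there.

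Without naive T-like cells the log2 fold change in T cells was 0.27 for Cxcr6 (SE 0.18, adjusted p = 0.386, edgeR) and 0.17 for Cxcr3 (SE 0.17, adjusted p = 0.576, edgeR). Without the Rapgef4 and Bach2 subcluster as well, it was 0.08 (SE 0.17, adjusted p = 0.953, edgeR) and -0.03 (SE 0.17, adjusted p = 1.00, edgeR). Cells with markers of several lineages that held a Cd3 UMI moved the values the other way, and with them Cxcr6 was at 0.76 (SE 0.21, adjusted p = 0.0207, edgeR) and Cxcr3 at 0.60 (SE 0.16, adjusted p = 0.0198, edgeR), both past the threshold. Of all genes tested, 7.85% passed without naive T-like cells, 0.258% without the subcluster as well and 26% with the mixed cells. The call of Cxcr6 in T cells thus held or not with which T cells were summed. All mixed cells together, with or without a Cd3 UMI, held 42.5%, 29.0% and 40.7% of all Cxcr6 UMIs under αPD-1 and 8.20%, 9.83% and 22.1% under αPD-1 + corin. The cell sets without naive T-like cells and with mixed cells, and the left-out samples for genes other than the members, were chosen after seeing the data.

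CD8 T-like cells, led by granzyme genes, Prf1 and the chemokine genes Ccl3 and Ccl4, carried 1618 of the 3000 Cxcr6 UMIs of T cells, and Cxcr6 was among the 10 genes that led the class although it was left out of the clustering. In them Cxcr6 was at 462, 493 and 464 CPM under αPD-1 and at 481, 374 and 413 CPM under αPD-1 + corin. The groups overlapped, with the lowest values in αPD-1 + corin replicates 2 and 3 and with 17 cells behind the value of replicate 1. The log2 fold change was -0.18 (SE 0.17, adjusted p = 1.00, edgeR), in a class where 0.0204% of genes passed. Cxcr3 in the same cells was at 54.8, 29.2 and 63.45 CPM and at 126.5, 8.19 and 47.7 CPM, a log2 fold change of -0.12 (SE 0.42, adjusted p = 1.00, edgeR). The 126.5 CPM of αPD-1 + corin replicate 1 rests on 17 cells, which held 39514 UMIs of all genes. The 8.19 CPM of replicate 2 equals the floor of 3 UMIs in its CD8 T-like cells.

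**Figure D4:**
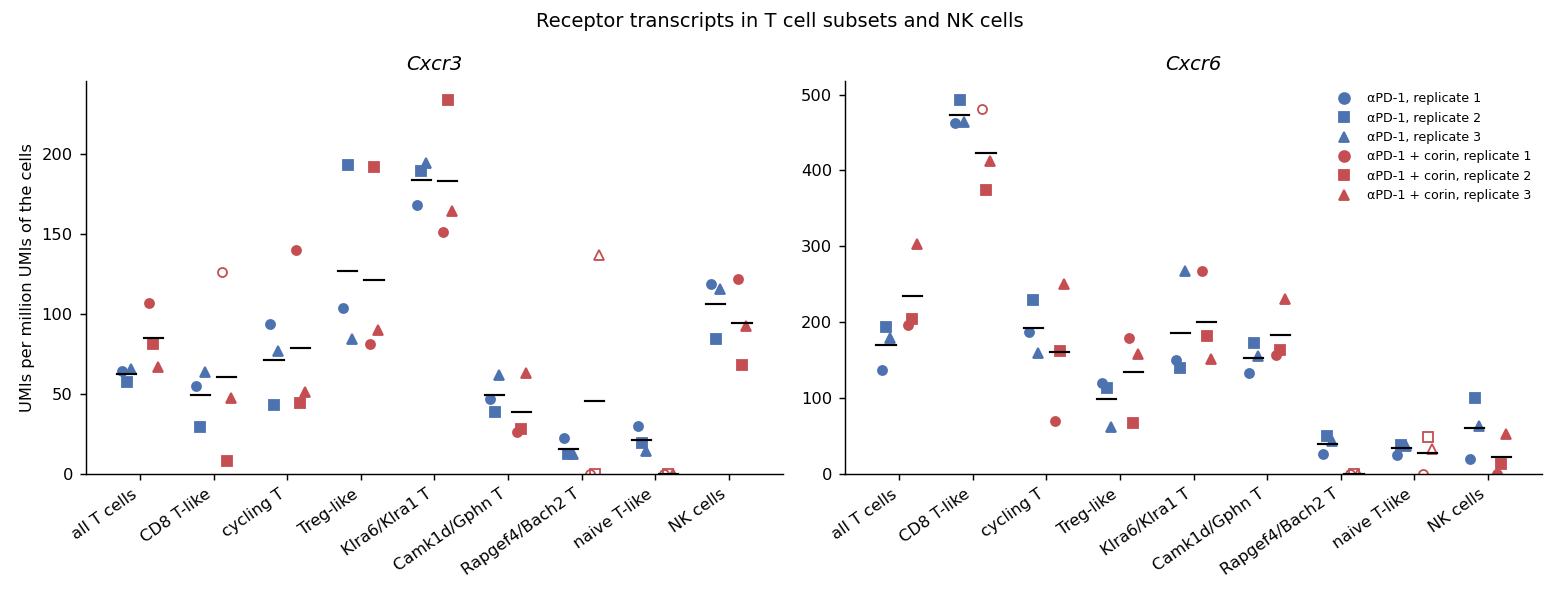
UMIs of Cxcr3 and Cxcr6 per 1000000 UMIs of the cells (vertical axes, linear from 0) in all T cells, in 7 T cell classes and in NK cells, with 1 symbol per sample, black bars for the mean of 3 samples and open symbols for a sample with fewer than 20 cells of the class. Cxcr6 lies between 374 and 493 in CD8 T-like cells of every sample, and Cxcr3 between 151.5 and 234 in the class led by Klra6 and Klra1.

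Cxcr3 had its highest T cell level in another class, led by Klra6, Klra1 and Ly6c2, which could not be named from the markers and which carried 288 of the 896 Cxcr3 UMIs of T cells. Cxcr3 was among its 10 leading genes. In it Cxcr3 was at 168, 189.5 and 194 CPM under αPD-1 and at 151.5, 234 and 165 CPM under αPD-1 + corin, with means of 184 ± 13.98 (SD, n = 3) and 183 ± 44.4 and overlapping groups. Cxcr6 was at 149.9, 139.7 and 268 CPM and at 267, 181 and 151.5 CPM there. This class made up 11.05%, 12.55% and 13.8% of T cells under αPD-1 and 36.9%, 23.4% and 24.15% under αPD-1 + corin, without overlap. In a class led by Camk1d and Gphn, Cxcr3 was at 26.0 to 62.9 CPM and Cxcr6 at 132 to 230.3 CPM over all samples, and the groups overlapped for both genes. Summed over all T cells without a name, Cxcr6 rose by 0.71 in log2 units (SE 0.18, adjusted p = 0.00668, edgeR) and Cxcr3 by 0.62 (SE 0.19, adjusted p = 0.0207, edgeR), where 20.9% of genes passed, and this sum holds the Rapgef4 and Bach2 subcluster, whose share differed between the groups. Both calls were lost without αPD-1 replicate 1 (0.54, adjusted p = 0.0733, and 0.53, adjusted p = 0.0946, edgeR). That of Cxcr3 was also lost without αPD-1 replicate 3 and without αPD-1 + corin replicates 2 or 3, at 0.57 to 0.64 with edgeR adjusted p of 0.0524 to 0.0891.

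In Treg-like cells, which restrain other T cells and carry Foxp3, Cxcr3 was at 103.5, 193 and 84.05 CPM under αPD-1 and at 81.45, 192 and 90.0 CPM under αPD-1 + corin. Cxcr6 was at 119, 113 and 61.6 CPM and at 179, 66.9 and 157 CPM. The groups overlapped for both, and the log2 fold changes were 0.06 (SE 0.34, adjusted p = 0.9755, edgeR) and 0.29 (SE 0.35, adjusted p = 0.856, edgeR). In cycling T cells Cxcr6 was at 187, 229 and 159 CPM and at 70.0, 162 and 250.5 CPM. Its log2 fold change there was -0.01 (SE 0.27) and that of Cxcr3 -0.14 (SE 0.38), both at an edgeR adjusted p of 1.00, and 0.0612% of genes passed.

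**Figure D5:**
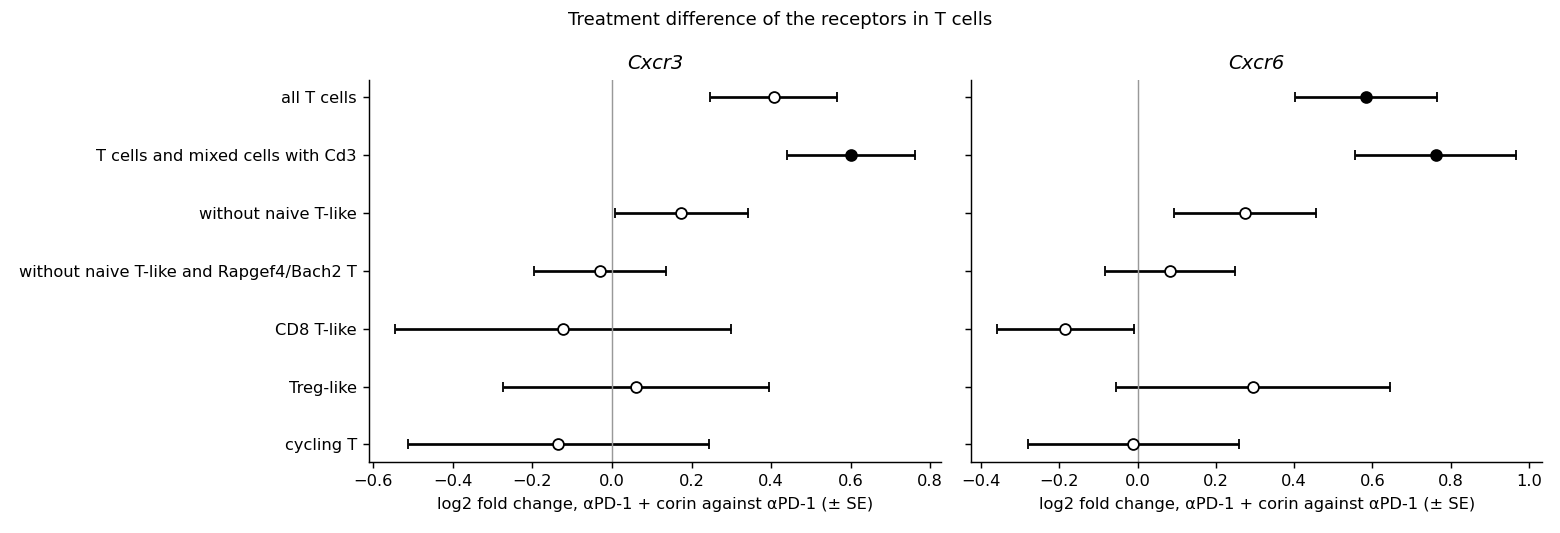
Log2 fold change of Cxcr3 and Cxcr6, αPD-1 + corin against αPD-1 (horizontal axes), from edgeR fits on UMIs summed over 7 sets of T cells, with bars of 1 SE and filled symbols for an adjusted p under 0.05. For Cxcr6 the value is 0.58 in all T cells, 0.27 without naive T-like cells and -0.18 in CD8 T-like cells.

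The share of T cells with a receptor UMI was compared after thinning to 1000 UMIs, which left out 68 αPD-1 and 29 αPD-1 + corin T cells. A Cxcr6 UMI was found in 6.86%, 11.9% and 11.8% of T cells under αPD-1 and in 14.9%, 16.0% and 21.6% under αPD-1 + corin (16.0%, 26.3% and 22.1%, and 28.6%, 38.9% and 52.0% without thinning). A Cxcr3 UMI was found in 6.60%, 4.47% and 5.36% and in 9.94%, 7.37% and 8.79% (12.3%, 13.4% and 12.98%, and 17.9%, 24.4% and 20.6% without thinning). The groups did not overlap for either receptor, each with an exact permutation p of 0.1, and the shares in thinned macrophages were at most 0.931% and 0.532%. Such shares were not computed for all genes, so that no background stands beside this lack of overlap. These shares are over all T cells. Naive T-like cells made up 29.8% to 38.1% of these under αPD-1 and 1.33% to 3.57% under αPD-1 + corin. Shares without naive T-like cells were not compared. Cells with UMIs of both receptors were few, 20 under αPD-1 and 24 under αPD-1 + corin, at 1.055%, 0.870% and 0.865% and at 3.73%, 1.60% and 1.1% of T cells.

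NK cells carried Cxcr3 in each of the 6 samples. It was at 119, 84.4 and 116 CPM under αPD-1 and at 122, 68.2 and 92.2 CPM under αPD-1 + corin, with overlapping groups and a log2 fold change of -0.14 (SE 0.31, adjusted p = 0.905, edgeR), where 0.71% of genes passed. Without αPD-1 + corin replicate 1 it was -0.25 (adjusted p = 0.886, edgeR). Cxcr6 was at 18.8, 99.3 and 62.3 CPM and at 0, 12.4 and 51.9 CPM, from 50 UMIs in all, and was too low to test. The 0 UMIs of αPD-1 + corin replicate 1 allow up to 30.4 CPM. After thinning, 11 of 185 αPD-1 and 2 of 247 αPD-1 + corin NK cells had a Cxcr6 UMI, at 2.94%, 8.70% and 6.25% of the cells under αPD-1 and at 1.33% in the only αPD-1 + corin sample with such a cell (exact permutation test, p = 0.1). Without thinning the shares overlapped, at 4.29%, 9.86% and 10.0% and, for αPD-1 + corin replicates 2 and 3, at 3.92% and 6.41%, with 0 of 48 cells in replicate 1, which allows up to 6.25%. In the fit of both lineages with the sample as a block, the difference of the log2 fold changes, NK minus T cells, was -1.55 for Cxcr6 (SE 0.48, adjusted p = 0.119, edgeR) and -0.51 for Cxcr3 (SE 0.34, adjusted p = 0.619, edgeR), and 0.913% of genes passed. Without αPD-1 replicate 1 the difference for Cxcr6 was -1.86 and passed (adjusted p = 0.0341, edgeR), and without αPD-1 + corin replicate 1 it was -1.35 (adjusted p = 0.128, edgeR). Cxcr6 entered this fit through its counts in T cells. Its NK side rests on the same 50 UMIs that were too low to test alone. These values are therefore not read as a difference between the lineages.

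Other genes of the axes were taken from 8 lists of 95 genes. In T cells the counts stand beside a background of 18.9% of all genes past the threshold. There 1 of 7 other chemokine receptors passed, Ccr2, which steers cells toward CCL2, and it rose by 1.02 in log2 units (SE 0.27, adjusted p = 0.0192, edgeR). Of 6 cytokines that T and NK cells release toward ligand-making cells 3 rose, among them Ifng, with a median of 0.83 over the list. Of 13 genes of the T cell programme around the receptors 2 rose and 5 fell. Itgae, the integrin chain of tissue-resident T cells, fell by 2.09 (SE 0.27, adjusted p = 0.000185, edgeR), and Tcf7, the factor of naive and stem-like T cells, fell by 1.77 (SE 0.19, adjusted p = 3.96e-05, edgeR). Of the 18 interferon input genes 3 rose and 2 fell, with Ifngr2, a chain of the interferon gamma receptor, lower by the most, at 21.5, 20.1 and 15.7 CPM and 7.44, 5.84 and 2.24 CPM (fell by 2.34, SE 0.38, adjusted p = 0.000839, edgeR). The 7.44 CPM of Ifngr2 in αPD-1 + corin replicate 1 equals the floor of 3 UMIs in the T cells of that sample. The median over all genes was -0.0018. The lower share of naive T-like cells, which carry Tcf7 and Ccr7, moved with these sums. Without naive T-like cells, Itgae (-1.79, adjusted p = 0.00628, edgeR) and Tcf7 (-1.14, adjusted p = 0.00930, edgeR) passed, and without the Rapgef4 and Bach2 subcluster as well Itgae passed (-1.73, adjusted p = 0.0465, edgeR) and Tcf7 did not (-0.69, adjusted p = 0.270, edgeR). Without naive T-like cells Ccr2 (0.71, adjusted p = 0.147, edgeR) and Ifngr2 (-1.39, adjusted p = 0.0792, edgeR) kept their sign and did not pass. The call of Ccr2 was also lost without αPD-1 replicate 2 (0.93, adjusted p = 0.0611, edgeR) or 3 (1.05, adjusted p = 0.0702, edgeR), and without αPD-1 + corin replicate 1 its value was 0.68 (adjusted p = 0.00923, edgeR).

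Other CXC ligands did move in monocytes. Cxcl1, which attracts neutrophils through CXCR2, was at 8.29, 11.7 and 0.743 CPM under αPD-1 and at 155, 145 and 68.0 CPM under αPD-1 + corin and rose by 4.18 in log2 units (SE 0.48, adjusted p = 0.00256, edgeR). Cxcl2, another CXCR2 ligand, was at 1185, 1239 and 1729 CPM and at 5354, 4256 and 2367 CPM and rose by 1.55 (SE 0.23, adjusted p = 0.00987, edgeR). Every αPD-1 + corin sample lay above every αPD-1 sample for both genes, with replicate 1 the highest, the reverse of its place for Cxcl9 and Cxcl10. Itgb2, the common chain of the leukocyte integrins, rose by 0.82 (SE 0.12, adjusted p = 0.00987, edgeR), and Klf2, a factor of quiescent cells, fell by 0.66 (SE 0.13, adjusted p = 0.0415, edgeR). In fibroblasts Nos2, the inducible nitric oxide synthase, was at 50.2, 40.2 and 13.8 CPM and at 149, 224 and 192 CPM and rose by 2.41 (SE 0.39, adjusted p = 0.0238, edgeR). With single samples left out, Cxcl1 kept its call each time. That of Nos2 was lost without any 1 of the αPD-1 samples (2.01 to 2.84, edgeR adjusted p of at least 0.0644) and that of Itgb2 likewise (0.77 to 0.89, edgeR adjusted p of 0.0589 to 0.0910). Cxcl2 in monocytes lost it without αPD-1 replicate 1 (1.44, adjusted p = 0.0913, edgeR) or 2 (1.48, adjusted p = 0.119, edgeR), and Klf2 without αPD-1 replicates 1 or 2 or αPD-1 + corin replicates 1 or 2 (-0.64 to -0.59, edgeR adjusted p of 0.114 to 0.199). In the T cell sums Cxcl2 was at 21.5, 26.1 and 13.2 CPM and at 240.5, 136 and 58.3 CPM and rose by 2.59 (SE 0.40, adjusted p = 0.000638, edgeR), far below its level in monocytes. It passed without naive T-like cells (2.46, adjusted p = 0.00324, edgeR) and without the Rapgef4 and Bach2 subcluster as well (2.33, adjusted p = 0.0426, edgeR). Neutrophils, at 0.382% to 0.436% of kept cells under αPD-1 and 2.16% to 30.8% under αPD-1 + corin, and macrophages moved with it, and the part of their free RNA in the T cell value was not tested.

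The genes most alike to each member were found over 134 sums of a class in a sample, from 28 classes with at least 20 cells, as Pearson's r of log2(CPM + 1). These values describe which classes carry a gene, and sums of 1 sample share its library and depth. For Cxcl9 they were Slamf8 (0.73), Flt1 (0.72), Zfp385a (0.70), Tnfaip2 (0.69) and Cxcl16 (0.68), and for Cxcl10 Isg15 (0.70), Gbp2 (0.69), Nupr1 (0.69), Ifit2 (0.66) and Il18bp (0.66). For Cxcl16 they were Sdc3 (0.85), Basp1 (0.84), Arhgap22 (0.83), Cd40 (0.82) and Spi1 (0.82). For Cxcr3 they were Sla2 (0.77), Sept1 (0.75), Xcl1 (0.75), Ctsw (0.75) and Il2rb (0.74), and for Cxcr6 Pdcd1, Cd3g, Cd8a and Cd3e (0.88 each) and Nkg7 (0.87).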

How the data were processed

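Reads had been mapped by the authors to GRCm39 (Cell Ranger 8.0), and they deposited UMI counts per gene and barcode, without normalization, for barcodes called as cells (Cell Ranger and Seurat 5.0.11 are named in the submitters' processing notes). Whether counting used the strand is not given in the sources used here, so that reads of overlapping opposite genes may not be told apart. Of 32285 gene identifiers 31674 are in the GENCODE vM39 annotation.

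A cell was kept with 600 to 4000 genes and a mitochondrial share of UMIs no higher than 10%. Scrublet (scanpy 1.11.5) scored doublets, and because its own threshold marked 0 barcodes, the top scores were removed at 0.4% per 1000 barcodes. Cells were clustered with SCTransform (Seurat 5.3.0, sctransform 0.4.2) and Louvain on 20 principal components at resolution 0.8, with markers and the 5 members left out of 3000 variable genes (2884 used). T and NK clusters (2913 genes) and dendritic cells (2895 genes) were clustered again. The members, gene lists and markers were chosen with earlier results of these data known.

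The UMIs of a class were added up for each sample and tested by quasi-likelihood in edgeR 4.0.16 (TMM, filterByExpr, Benjamini-Hochberg over all genes tested, threshold 0.05, at least 10 cells per sample). Levels averaged over samples and shares of cells come from classes with at least 20 cells in each sample, other levels are printed with the cell number where it was lower, and floors were set at 3 UMIs. Shares of cells used cells thinned to 1000 UMIs and a two-sided exact permutation test. Intervals are exact 95% Poisson intervals. Named genes are the members, up to 3 list genes each way per lineage past the threshold, and the 5 genes most alike to each member among those reaching 50 CPM in a class. On simulated data with 200 genes changed 4-fold, the test found 179 in the macrophage sums (15 false calls among 11830 genes) and 191 in the T cell sums (13 among 9741). Smaller changes were not simulated, so that these counts do not tell how often differences of the size seen for most members would be found. Comparisons between lineages and between subsets are descriptions. A lack of overlap between the groups is a description as well, because its share over all genes was not counted. Alternatives were other normalizations and resolutions, DESeq2 1.42.0, RLE size factors, no doublet removal, no upper gene limit, no low-count filter, a replicate block, cells of other lineages left out, and fits that left out 1 sample each. R 4.3.3 with limma 3.58.1 and Python 3.11.15 were used. Protein sequences were not analysed here.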

Additional observations from a re-analysis of the deposited data

How the results depend on the processing

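Of the 68 fits of the ligands in macrophages and the receptors in T cells under an alternative other than leaving out a sample, 60 kept direction and side of the threshold. The cause of the changes was not tested. Cxcr6 in T cells lost its call under LogNormalize (0.45, adjusted p = 0.1165, edgeR), at resolution 1.2 (0.51, edgeR adjusted p = 0.134), without an upper limit on genes (0.60, edgeR adjusted p = 0.0506), without naive T-like cells (0.27) and without these and the Bach2 subcluster (0.082), and the other alternatives gave an adjusted p between 0.000964 and 0.0395. Cxcr3 in T cells passed with mixed cells that hold a Cd3 UMI (0.60) and was -0.029 without naive T-like cells and the Bach2 subcluster. The alternatives on these cell sets, on 3 macrophage clusters and on mixed cells were chosen after seeing the data.

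Replicate numbers did not pair the samples, with correlations of same-numbered samples of -0.042, -0.135 and -0.146 in macrophages and 0.103, -0.0075 and -0.089 in T cells. With the replicate block, Cxcl9 was -0.98 in macrophages and -0.053 in fibroblasts and Cxcl10 was -0.043 in dendritic cells, and Cxcr6 in T cells was 0.52 (adjusted p = 0.0305, edgeR). The block changed no call. Other reversals, none of them past the threshold, were Cxcl9 (0.25) and Cxcl16 (0.65) in monocytes under LogNormalize, Cxcl10 in dendritic cells under LogNormalize (-0.58), no doublet removal (-0.52), resolution 0.4 (-0.49), resolution 1.2 (-0.57) and without cells of other lineages (-0.051), and Cxcl10 in fibroblasts without an upper limit on genes (0.39). Without the sample block the difference between dendritic cells and macrophages was -0.15 for Cxcl9 and -0.0080 for Cxcl16. The difference in the share of macrophages with a Cxcl9 UMI was 0.0953 points at 500 UMIs, and that in the Cxcl9 UMIs from macrophages was 9.76 points among immune cells.

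With each sample left out in turn, the log2 fold change ranged from -1.33 to 0.63 for Cxcl9, -0.74 to 0.15 for Cxcl10 and -0.092 to 0.38 for Cxcl16 in macrophages, from -1.63 to 0.27, -0.99 to 0.29 and -0.38 to 0.12 in monocytes, from -0.61 to 0.42, -0.36 to 0.62 and -0.032 to 0.29 in dendritic cells, and from -0.087 to 0.88, -0.77 to 0.16 and -0.54 to 0.18 in fibroblasts. It ranged from -0.028 to 0.79 for Cxcl10 in melanoma cells, 0.31 to 0.60 for Cxcr3 and 0.32 to 0.74 for Cxcr6 in T cells, and -0.29 to 0.0085 for Cxcr3 in NK cells. Differences between lineages ranged from -0.051 to 0.97 for Cxcl9, 0.16 to 0.83 for Cxcl10, -0.16 to 0.45 for Cxcl16, -0.77 to -0.39 for Cxcr3 and -3.22 to -0.95 for Cxcr6. Differences in shares of cells, in points, ranged from -7.19 to 4.35 for Cxcl9, -6.11 to 0.0752 for Cxcl10 and -1.15 to 2.37 for Cxcl16 in macrophages, 2.60 to 3.89 for Cxcr3 and 5.28 to 8.65 for Cxcr6 in T cells, and -7.03 to -4.15 for Cxcr6 in NK cells. Those in shares of ligand UMIs ranged from -8.77 to 4.13 for Cxcl9 from macrophages, 6.99 to 23.1 from fibroblasts and -8.23 to -6.01 from monocytes, 7.27 to 14.7 for Cxcl10 from macrophages, -17.0 to -8.19 from monocytes and 4.11 to 7.92 from melanoma cells, and 3.65 to 12.3 for Cxcl16 from macrophages and -2.48 to 0.986 from dendritic cells.

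DESeq2 called 236 genes in macrophages where edgeR called 6, 107 against 63 in monocytes, 22 against 8 in dendritic cells, 1069 against 1839 in T cells, 7 against 0 in melanoma cells and 205 against 63 in fibroblasts. Few UMIs lie behind Cxcr6 in NK cells, both receptors in naive T-like cells under αPD-1 + corin, the ligands in cDC1-like cells under αPD-1 and Ifngr2 in T cells under αPD-1 + corin.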

Other observations

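Cxcr3 was also found in cells that are not lymphocytes of the T or NK lineage. Plasmacytoid dendritic cells, which make type I interferon, had Cxcr3 at 59.1, 84.2 and 11.8 CPM under αPD-1 and at 70.1, 88.8 and 70.6 CPM under αPD-1 + corin, with overlapping groups. In cDC1-like cells Cxcr3 was at 30.7, 137 and 35.1 CPM and at 98.0, 119 and 50.4 CPM, with 20, 14 and 13 cells behind the αPD-1 values. Both lay above the macrophage background in each sample. The 11.8 CPM of αPD-1 replicate 3 in plasmacytoid dendritic cells, from 64 cells, equals the floor of 3 UMIs there and is not told apart from that background. In cDC1-like cells the log2 fold change was 0.51 (SE 0.49, adjusted p = 0.707, edgeR), and that of plasmacytoid dendritic cells was not tested.

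Within macrophages, the cluster led by MHC class II genes carried 23.0%, 33.9% and 22.6% of the Cxcl9 UMIs under αPD-1 and 35.7%, 52.8% and 27.8% of those under αPD-1 + corin.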
